A study of Mus musculus with 15 samples.

Results

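The genes followed here are 38 listed members of fibroblast growth factor (FGF) signalling, namely its ligands, its receptors, and the inhibitors, transcription factors and adaptors that act downstream of the receptors. Each was read from 1 probe set matched by gene symbol, the one with the highest mean over the arrays when several carried the symbol. Of the 38, 36 were measured, among 18193 genes measured in all. Etv1 has only probe sets that name several genes and Frs2 has no probe set under its name, so both were not analysed here.

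RNA of newborn (postnatal day 1, P1) mouse pituitaries was pooled, and 1 Affymetrix whole-genome mouse expression array was hybridised per pool. The 10 pools described here fall into 2 groups of 5, both on the DW/J strain. The first carries 2 copies of the dw allele of Pit1 (Snell dwarf), and the second is Pit1 +/+. All mice were fed high fat chow. The labels do not give the number of pituitaries in a pool. Nothing in the labels says how the pools of a group were separated, so p-values measure only the spread between these pools.

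FGFs of the paracrine class leave the cell and bind receptor tyrosine kinases together with heparan sulphate. The receptors signal through the adaptor Frs2 and the RAS and ERK cascade, which switches on the ETS factors Etv4 and Etv5 and the inhibitors Dusp6, Sprouty (Spry) and Spred. In the mouse embryo, Fgf8, Fgf10 and Fgf18 are made in the infundibulum, the part of the ventral brain that touches Rathke's pouch. Fgf10 and Fgfr2 are needed for the pouch, the source of the anterior pituitary, to survive. Pit1 is a POU domain transcription factor needed for the cells that make growth hormone, prolactin and thyrotropin.

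The genes of growth hormone and of the thyrotropin beta subunit followed the labels. Growth hormone (Gh) had log2 signals of 9.76, 9.13, 7.75, 7.15 and 10.31 in Pit1 dw/dw pools and 14.22, 14.26, 14.19, 14.28 and 14.15 in Pit1 +/+ pools. Tshb, the thyrotropin beta subunit, had 6.93, 7.01, 6.20, 6.99 and 6.72 in Pit1 dw/dw pools and 11.91, 12.29, 11.67, 11.90 and 11.77 in Pit1 +/+ pools. The groups did not overlap in either gene, and by limma the log2 change was -5.40 in Gh (SE 0.88, adjusted p = 0.00586) and -5.13 in Tshb (SE 0.57, adjusted p = 0.000244). The gonadotropin beta subunit genes Lhb and Fshb overlapped between the groups and did not pass. Cga, the alpha subunit shared by thyrotropin and the gonadotropins, also overlapped and did not pass (-0.55, SE 0.22, adjusted p = 0.482). Pomc was 14.03 to 14.17 in Pit1 dw/dw pools and 13.74 to 13.99 in Pit1 +/+ pools. Its groups were fully apart, beside 2.78% of all genes, with a change of 0.19 (SE 0.11, adjusted p = 0.684). The lineage factors Pitx1 and Lhx3 overlapped and did not pass. In RNA of whole glands, fewer cells of a type and less RNA per cell cannot be told apart, which holds for every gene here. Pool 1 of Pit1 +/+ carries a genotype entry that goes against its own title, source and strain, and its Gh and Tshb lay in the range of the other Pit1 +/+ pools. Pou1f1, the gene that carries the dw allele, has no probe set under its own name in the annotation and was not analysed here. The median log2 signal of an array was 4.31 to 4.43, and the number of arrays limits the precision.

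The bases before the starts of Fgf9, Gpc4 and Dusp6 are shown to give the sequence context of genes named below. Fgf9 came closest to the threshold among the FGF genes, Gpc4 was the one pathway gene outside the set that passed, and Dusp6 holds the one match to the Pit1 site among the listed genes. The sequences are RefSeq, build GRCm38.p6, 250 bases before the first transcribed base, written 5′ to 3′ on the gene's strand. Capitals mark a match to TATNCAT, the core of the site bound by Pit1, where N is any base. The Fgf9 stretch is chr14:58072436-58072685, plus strand, and it stands before a start inside the gene, whose span is chr14:58070671-58112854. The Gpc4 stretch is chrX:52164924-52165173, minus strand, and the Dusp6 stretch is chr10:99262981-99263230, plus strand.
Fgf9: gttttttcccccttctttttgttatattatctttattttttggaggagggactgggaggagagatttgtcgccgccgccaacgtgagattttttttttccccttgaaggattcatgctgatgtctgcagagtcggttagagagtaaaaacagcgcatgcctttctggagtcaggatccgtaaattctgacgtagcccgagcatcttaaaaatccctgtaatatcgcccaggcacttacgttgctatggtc
Gpc4: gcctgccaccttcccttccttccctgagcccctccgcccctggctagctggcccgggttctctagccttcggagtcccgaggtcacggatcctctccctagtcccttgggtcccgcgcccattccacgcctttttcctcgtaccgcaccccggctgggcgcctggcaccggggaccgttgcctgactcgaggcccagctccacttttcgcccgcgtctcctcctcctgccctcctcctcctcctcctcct
Dusp6: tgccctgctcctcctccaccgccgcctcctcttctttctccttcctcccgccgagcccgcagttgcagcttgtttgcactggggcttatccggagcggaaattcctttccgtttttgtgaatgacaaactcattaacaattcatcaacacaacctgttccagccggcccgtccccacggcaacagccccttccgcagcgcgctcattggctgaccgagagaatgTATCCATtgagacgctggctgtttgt

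Searched on both strands, TATNCAT occurred in 2603 of 32851 promoters of the same length (7.92%). Among the 38 promoters matched to 29 of the listed genes it occurred in 1, that of Dusp6, where it lay 26 to 20 bases before the start. CCGGAAGT is a long form of the site bound by ETS factors such as Etv4 and Etv5, whose core is the shorter GGAA. CCGGAAGT occurred in 945 promoters (2.88%) and in 2 of those 38, the ones of Fgfrl1 and Frs2. CCGGAAGT did not occur in the stretches shown, and no match there overlapped another. The shorter GGAA was not counted, and it does occur in the Dusp6 stretch. G or C made up 44.8% of the Fgf9 stretch, 68.4% of the Gpc4 stretch and 56.4% of the Dusp6 stretch, against a median of 52.4% over all promoters.

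Over the whole set, no FGF gene passed the test between Pit1 dw/dw and Pit1 +/+. By limma, 0 of 36 were called at an adjusted p of 0.05, beside 0.77% of all genes, 0.165% higher and 0.605% lower. At an unadjusted p under 0.05 there were 3, namely Fgf9, Fgf14 and Fgfr2, beside 8.46% of all genes. The values of the groups were fully apart in 0 of the 36, beside 2.78% of all genes. Of the 36 changes, 20 were above 0.

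The changes were small in most of the 36. The median log2 change in Pit1 dw/dw against Pit1 +/+ was 0.04, beside -0.02 over all genes. The median size of the change, whatever its sign, was 0.13 for the FGF genes and 0.12 over all genes. The 95% interval of the change stayed within 2-fold either way for 32 of the 36, beside 93.2% of all genes. The intervals that reached 2-fold were those of Fgf1, Fgf9, Fgf12 and Fgf13.

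**Figure D1:**
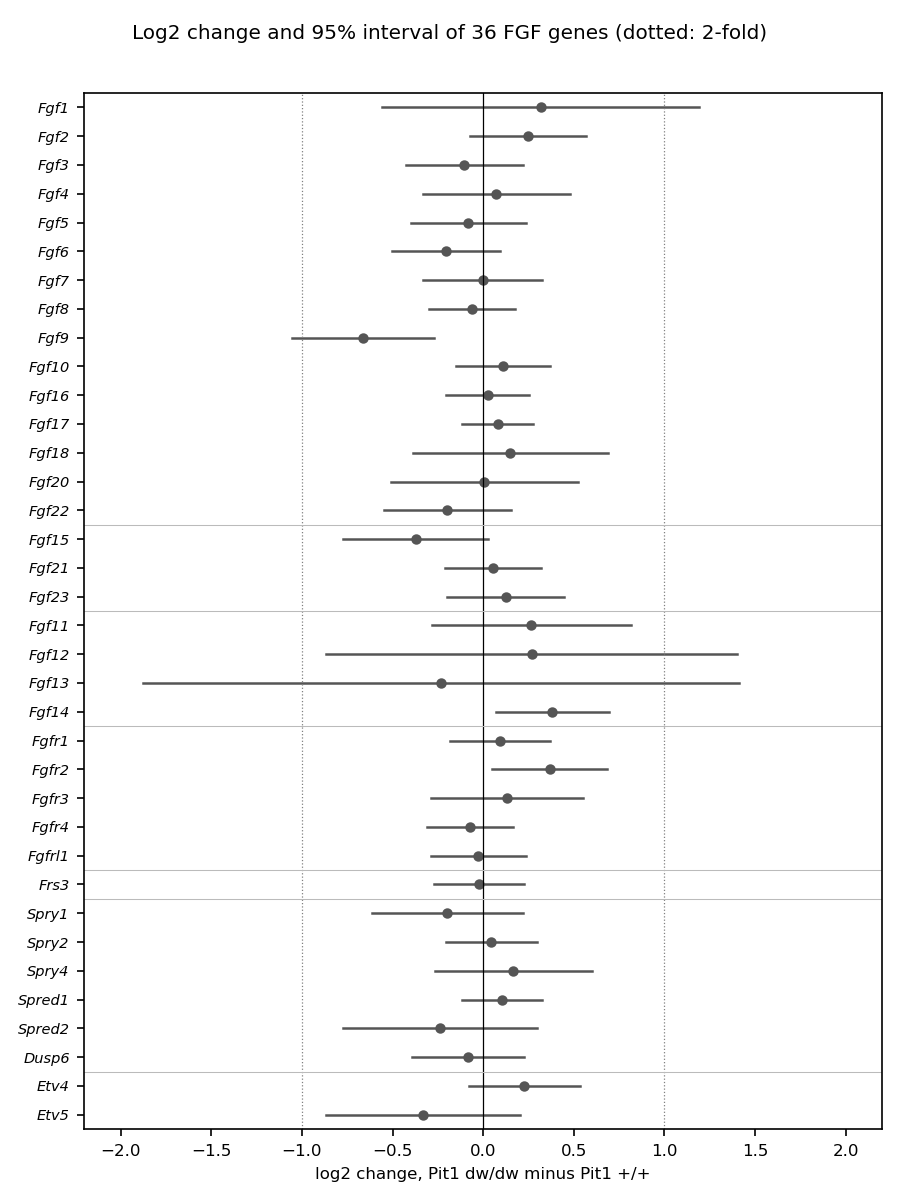
Log2 change (x axis) of the 36 FGF genes, by role (y axis), in Pit1 dw/dw minus Pit1 +/+, with points for the fitted change, lines for its 95% interval and dotted lines at 2-fold. The widest intervals are those of Fgf13 and Fgf12, and Fgf9 lies farthest below 0.

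Among the 15 paracrine ligands none passed the test, beside 0.77% of all genes, and their median change was 0.01. Most of them gave dim signals, on the log2 RMA scale used for all values here. Fgf2, Fgf3, Fgf4, Fgf5, Fgf6, Fgf7, Fgf8, Fgf10, Fgf16, Fgf17 and Fgf22, 11 of the 15, lay below their own array's median on all 10 arrays. Fgf1, Fgf9, Fgf18 and Fgf20 lay above it on all 10. At dim signals, differences can be lost in the background of the array.

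Fgf9, which in mouse drives growth of mesenchyme and of the gonad, was singled out after its values were seen. It had 5.46, 5.23, 5.46, 5.47 and 6.02 in pools 1 to 5 of Pit1 dw/dw and 6.05, 6.61, 5.67, 6.12 and 6.51 in pools 1 to 5 of Pit1 +/+. All but 1 of the Pit1 +/+ values, pool 3 at 5.67, were above all 5 Pit1 dw/dw values, and pool 5 of Pit1 dw/dw, at 6.02, was the one above it. Means were 5.53 ± 0.29 in Pit1 dw/dw and 6.19 ± 0.38 in Pit1 +/+ (SD, n = 5 each), and the change was -0.66 (SE 0.18, 95% interval -1.06 to -0.27, limma adjusted p = 0.176). It passed in 1 alternative, with array weights (-0.61, adjusted p = 0.0397). In that setting 571 of 18193 genes were called, against 140 in the main fit. The gene's other probe set gave -0.19 (adjusted p = 0.908 over all probe sets).

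Fgf8, the infundibular ligand that acts on the early pouch, had 2.91, 2.76, 2.87, 2.80 and 2.84 in pools 1 to 5 of Pit1 dw/dw and 3.04, 2.67, 2.80, 2.98 and 2.98 in pools 1 to 5 of Pit1 +/+. All 10 values were below their arrays' medians, and the Pit1 dw/dw values lay inside the range of Pit1 +/+. The change was -0.06 (SE 0.11, adjusted p = 0.960).

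Fgf10, the ligand that pouch cells need to survive, had 3.88, 3.94, 3.82, 3.88 and 3.98 in pools 1 to 5 of Pit1 dw/dw and 4.12, 3.82, 3.63, 3.75 and 3.64 in pools 1 to 5 of Pit1 +/+. It was dim in every pool, and the Pit1 dw/dw pools spread less than the Pit1 +/+ pools and lay inside their range. Its change was 0.11 (SE 0.12, adjusted p = 0.905), with a 95% interval of -0.15 to 0.37.

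Fgf18, made in the infundibulum and, in skeleton, by cells that control cartilage growth, had 4.79, 4.59, 5.25, 4.93 and 5.76 in pools 1 to 5 of Pit1 dw/dw and 5.18, 4.63, 5.47, 4.74 and 4.55 in pools 1 to 5 of Pit1 +/+. Pool 5 of Pit1 dw/dw was the highest and pool 3 of Pit1 +/+ the next, and the groups overlapped. The change was 0.15 (SE 0.25, adjusted p = 0.955).

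Fgf1, the ligand that binds all FGF receptors, had 6.99, 7.40, 7.89, 6.67 and 7.94 in pools 1 to 5 of Pit1 dw/dw and 6.92, 6.75, 8.47, 6.70 and 6.48 in pools 1 to 5 of Pit1 +/+. Values of 7.40 or more occurred in pools 2, 3 and 5 of Pit1 dw/dw and in pool 3 of Pit1 +/+. The other pools were no higher than 6.99. The change was 0.32 (SE 0.41, adjusted p = 0.931), with a 95% interval of -0.56 to 1.19. Fgf20, which acts in the inner ear and kidney of the mouse, averaged 4.80 ± 0.23 in Pit1 dw/dw and 4.79 ± 0.42 in Pit1 +/+ (SD, n = 5 each), a change of 0.01.

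Fgf7, a ligand from mesenchyme that acts on epithelia, was dim, with means of 3.26 ± 0.20 in Pit1 dw/dw and 3.27 ± 0.18 in Pit1 +/+ (SD, n = 5 each). Fgf2, Fgf3, Fgf4, Fgf5, Fgf6, Fgf16 and Fgf17, which act in blood vessel, limb, muscle and brain development among other settings, had signals between 2.36 and 3.89. Their changes lay between -0.20 (Fgf6) and 0.25 (Fgf2), with adjusted p no lower than 0.732.

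The endocrine FGFs, which act at a distance and need Klotho co-receptors, were also dim. Fgf15, the mouse bile acid signal from the gut, Fgf21, a fasting signal of the liver, and Fgf23, the phosphate signal of bone, lay between 2.31 and 3.63 in all 10 pools, below the array medians. The change of Fgf15 was -0.37 (SE 0.19, adjusted p = 0.646), and those of Fgf21 and Fgf23 were 0.05 and 0.12.

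The intracellular FGF homologous factors Fgf11, Fgf12, Fgf13 and Fgf14 are not secreted and do not signal through the receptors in the way paracrine FGFs do. They bind the tails of voltage-gated sodium channels, mostly in nerve and muscle. None of the 4 passed the test, beside 0.77% of all genes.

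Fgf14 had 8.19, 8.28, 7.96, 8.12 and 7.86 in pools 1 to 5 of Pit1 dw/dw and 7.60, 8.13, 7.41, 7.58 and 7.77 in pools 1 to 5 of Pit1 +/+. Pit1 dw/dw lay above Pit1 +/+ except for pool 2 of Pit1 +/+, at 8.13, which was higher than 3 of the 5 Pit1 dw/dw pools. Means were 8.08 ± 0.17 in Pit1 dw/dw and 7.70 ± 0.27 in Pit1 +/+ (SD, n = 5 each). The change was 0.38 (SE 0.15, 95% interval 0.07 to 0.69, adjusted p = 0.423), and it passed with array weights (0.46, adjusted p = 0.0427). With those weights 571 of 18193 genes were called. Fgf14 has 4 probe sets, and the other 3 gave 0.03, 0.06 and 0.02.

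Fgf13 varied more among the pools of a group than between groups. It had 6.51, 8.50, 9.86, 7.04 and 7.76 in pools 1 to 5 of Pit1 dw/dw and 7.64, 7.82, 10.49, 7.49 and 7.38 in pools 1 to 5 of Pit1 +/+. The change was -0.23 (SE 0.77, 95% interval -1.88 to 1.41, adjusted p = 0.985). Its high pools were also those with high Prph, a gene of peripheral neurons that was listed here among sensory ganglion markers. The trigeminal ganglion, a sensory ganglion, lies beside the pituitary, but the source of the Prph signal was not tested. Prph was 7.79 and 9.89 in pools 2 and 3 of Pit1 dw/dw and 10.59 in pool 3 of Pit1 +/+, and no higher than 3.78 in the other 7 pools. In those 3 pools Fgf13 lay between 8.50 and 10.49, and in the other 7 between 6.51 and 7.82. The rest of the ganglion list did not follow Prph in every pool. In pool 5 of Pit1 dw/dw, Nefl was 10.76, Nefm 9.28, Nefh 8.41 and Pou4f1 8.98, and the mean of the list was 7.71, against 7.58 in pool 2, while Fgf13 was 7.76 and Prph 3.51. With the means of the ganglion and bone lists as covariates, the Fgf13 change was -0.94 and passed (adjusted p = 0.0197), a setting added after the values were seen.

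**Figure D2:**
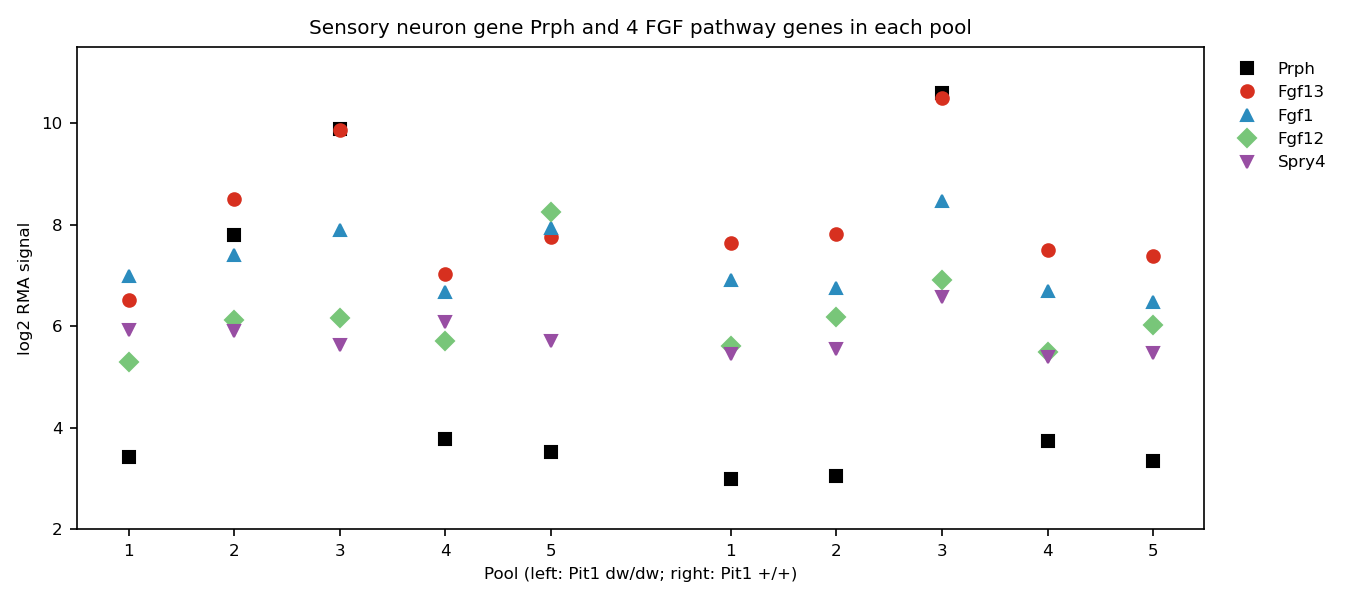
Log2 RMA signal (y axis) of Prph, a gene of the sensory ganglion list, and of Fgf13, Fgf1, Fgf12 and Spry4 in each of the 10 pools (x axis). Pit1 dw/dw pools are left and Pit1 +/+ pools right. Prph and Fgf13 are both high in pools 2 and 3 of Pit1 dw/dw and pool 3 of Pit1 +/+. Spry4 is highest in pool 3 of Pit1 +/+ and, among Pit1 dw/dw pools, lowest in pool 3.

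Fgf22, a ligand of synapse formation in mouse brain, went the other way, with 2.99 to 3.04 in the 3 high-Prph pools and 3.13 to 3.74 in the other 7, all below the array medians. Its change between the groups was -0.20 (SE 0.16). These were the 2 of the 36 FGF genes with no overlap between the high-Prph pools and the rest, beside 435 of 18193 genes (2.39%).

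Fgf12 had 5.29, 6.12, 6.15, 5.71 and 8.24 in pools 1 to 5 of Pit1 dw/dw and 5.61, 6.17, 6.90, 5.48 and 6.02 in pools 1 to 5 of Pit1 +/+. Its highest value, 8.24, was in pool 5 of Pit1 dw/dw, the pool with high neurofilament genes and low Prph. The change of Fgf12 was 0.27 (SE 0.53, adjusted p = 0.963). Fgf11 lay between 4.26 and 5.56 over the 10 pools, with a change of 0.27 (SE 0.26, adjusted p = 0.884).

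The list of sensory ganglion and Schwann cell markers varied within each group. Of 12 listed, 9 were measured, and none passed, beside 0.77% of all genes. Their median change was 0.94, with Nefh at 1.58 (SE 1.06), Nefm at 1.49 (SE 1.25), Nefl at 1.26 (SE 1.17) and Sox10 at 1.05 (SE 0.93), and the groups overlapped in each of these. Their summed linear signal ran between 2054 and 9742 in Pit1 dw/dw pools and between 1001 and 14787 in Pit1 +/+ pools. Tlx3 of that list was no higher than 2.68 in any pool. The mean log2 signal of the ganglion list was 7.58, 8.94 and 7.71 in pools 2, 3 and 5 of Pit1 dw/dw. It was 9.53 in pool 3 of Pit1 +/+ and no higher than 6.14 in the other pools. Fgf1 was also highest in those named pools, at 7.40 to 8.47, against at most 6.99 elsewhere. That was seen after the values were known, and how many of all genes do the same was not counted. The part of such tissue in the values of Fgf1, Fgf12, Fgf13 and Fgf22 was not tested.

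None of the 5 receptors passed, beside 0.77% of all genes, and their median change was 0.09. Fgfr2, the receptor for Fgf10 and Fgf7 in epithelia, had 9.41, 9.37, 9.17, 9.38 and 9.35 in pools 1 to 5 of Pit1 dw/dw and 9.16, 8.78, 8.52, 9.05 and 9.35 in pools 1 to 5 of Pit1 +/+. The 5 Pit1 dw/dw values lay between 9.17 and 9.41, and Pit1 +/+ reached lower, to 8.52. Its change was 0.37 (SE 0.15, 95% interval 0.05 to 0.68, adjusted p = 0.480). The labels and files do not say which splice forms of Fgfr2 its probe set covers, and its other 2 probe sets gave 0.13 and 0.38 at dim signals.

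Fgfr1, the receptor most widely used in mesenchyme and brain, had 7.56, 7.58, 7.90, 7.66 and 7.29 in pools 1 to 5 of Pit1 dw/dw and 7.60, 7.21, 7.78, 7.60 and 7.34 in pools 1 to 5 of Pit1 +/+. The groups overlapped, with a change of 0.09 (SE 0.13, adjusted p = 0.937). The gene's 3 probe sets gave changes of 0.09 to 0.29, and none passed.

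Fgfr3, a brake on cartilage growth, had 5.62, 5.51, 5.56, 5.78 and 5.37 in pools 1 to 5 of Pit1 dw/dw and 6.02, 4.80, 5.71, 5.68 and 4.97 in pools 1 to 5 of Pit1 +/+. It spread more in Pit1 +/+, where pools 2 and 5 were low, and its change was 0.13 (SE 0.20, adjusted p = 0.944).

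Fgfrl1 binds FGFs and heparin but lacks the kinase domain of the others, and mice without it have skeletal and diaphragm defects. It averaged 6.47 ± 0.04 in Pit1 dw/dw and 6.50 ± 0.20 in Pit1 +/+ (SD, n = 5 each), a change of -0.03 (SE 0.12) with a 95% interval of -0.29 to 0.24. Fgfr4, the receptor for Fgf15 in mouse liver, lay between 2.66 and 3.19, below the median of every array.

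**Figure D3:**
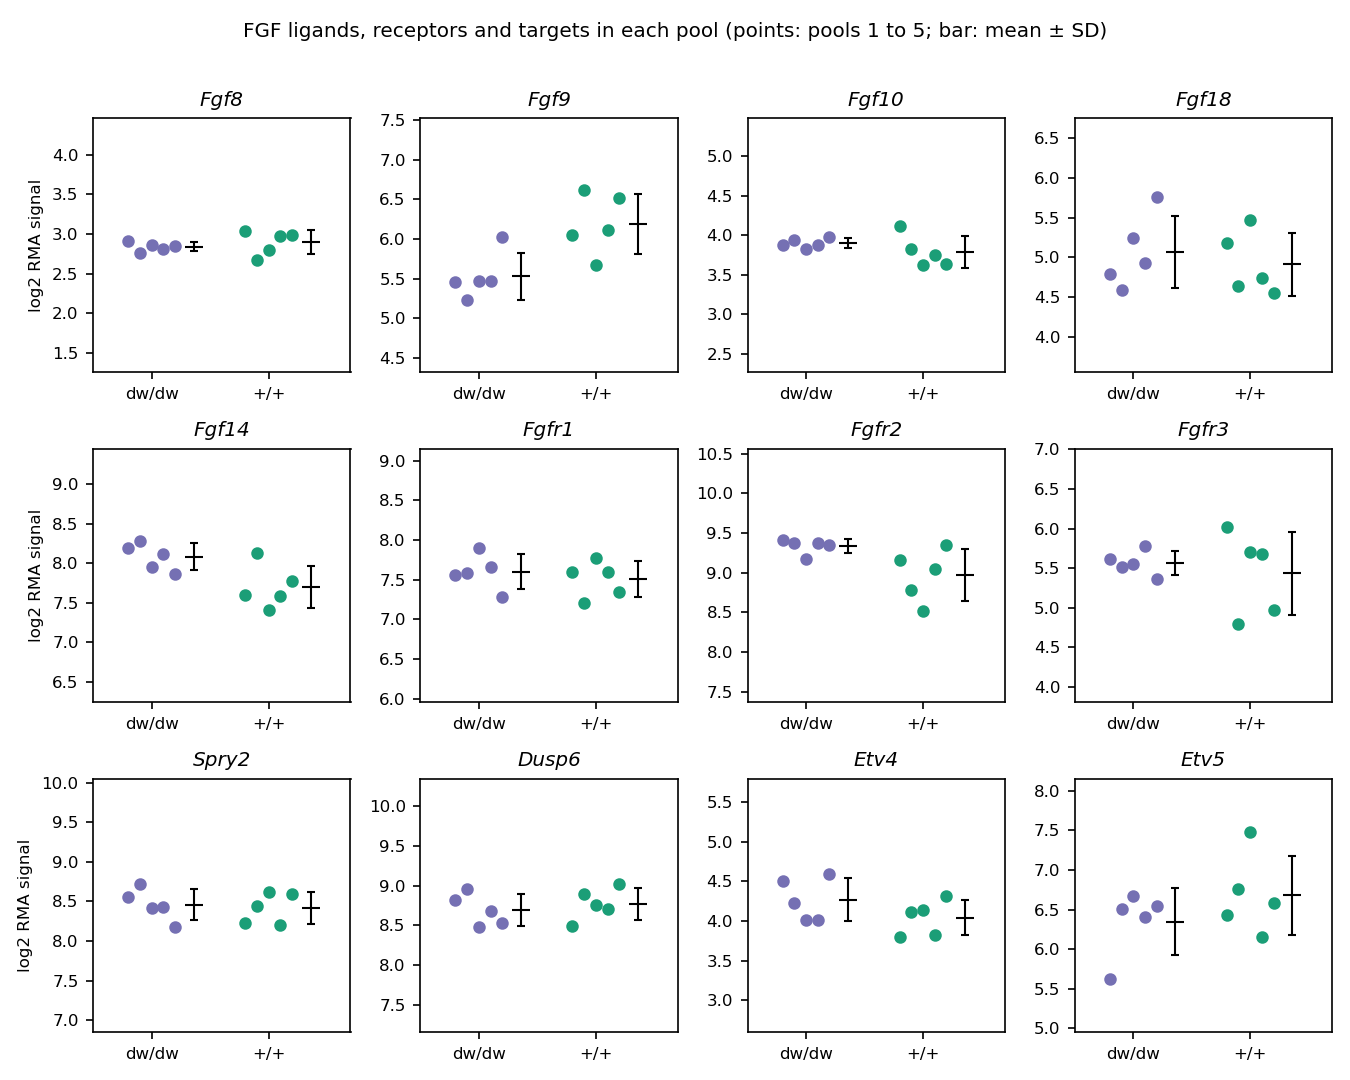
Log2 RMA signal (y axes) of 12 FGF genes in Pit1 dw/dw (left) and Pit1 +/+ (right) pools, with points for pools 1 to 5 and bars for the mean ± SD. The groups overlap in each of the 12 genes, and Fgf9, Fgf14 and Fgfr2 show the clearest shift.

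The feedback inhibitors are read as a measure of ERK signalling in many tissues. None of the 6 measured passed, beside 0.77% of all genes, and all 6 lay above the median of every array. Their median log2 change was -0.02, and all 6 intervals stayed within 2-fold.

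Dusp6, the phosphatase that removes phosphate from ERK, had 8.81, 8.96, 8.47, 8.68 and 8.53 in pools 1 to 5 of Pit1 dw/dw and 8.49, 8.89, 8.76, 8.71 and 9.02 in pools 1 to 5 of Pit1 +/+. The groups overlapped, with a change of -0.08 (SE 0.14, adjusted p = 0.958) and a 95% interval of -0.39 to 0.22.

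Spry2, a membrane-bound inhibitor of receptor signalling, had 8.56, 8.72, 8.42, 8.43 and 8.17 in pools 1 to 5 of Pit1 dw/dw and 8.23, 8.45, 8.61, 8.20 and 8.59 in pools 1 to 5 of Pit1 +/+. Its 10 values spanned 8.17 to 8.72, with both ends in Pit1 dw/dw, and the change was 0.05 (SE 0.12, 95% interval -0.20 to 0.30).

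Spry1, which limits FGF and GDNF signals in the mouse kidney, averaged 4.67 ± 0.35 in Pit1 dw/dw and 4.87 ± 0.29 in Pit1 +/+ (SD, n = 5 each), a change of -0.20 (SE 0.20). Spry4 lay between 5.63 and 6.08 in Pit1 dw/dw and between 5.39 and 6.58 in Pit1 +/+. Spry4 was highest in pool 3 of Pit1 +/+, one of the high-Prph pools, and its change was 0.17 (SE 0.20). In the other high-Prph pools, pools 2 and 3 of Pit1 dw/dw, it was 5.91 and 5.63, the latter the lowest of its group.

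Spred1, an inhibitor that acts on RAS, averaged 8.82 ± 0.15 in Pit1 dw/dw and 8.72 ± 0.15 in Pit1 +/+ (SD, n = 5 each), a change of 0.10 (SE 0.10). Spred2, a relative of Spred1, averaged 5.57 ± 0.34 in Pit1 dw/dw and 5.81 ± 0.41 in Pit1 +/+, a change of -0.24 (SE 0.25).

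The ETS factors, which carry the ERK signal to DNA, did not pass either. Etv4 had 4.50, 4.23, 4.01, 4.01 and 4.59 in pools 1 to 5 of Pit1 dw/dw and 3.80, 4.12, 4.14, 3.83 and 4.32 in pools 1 to 5 of Pit1 +/+. It lay near the array medians, below them on 8 of 10 arrays, and the groups overlapped. Its change was 0.23 (SE 0.14, adjusted p = 0.743).

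Etv5 had 5.62, 6.50, 6.67, 6.41 and 6.55 in pools 1 to 5 of Pit1 dw/dw and 6.43, 6.76, 7.48, 6.16 and 6.58 in pools 1 to 5 of Pit1 +/+. Its lowest pool was pool 1 of Pit1 dw/dw and its highest pool 3 of Pit1 +/+, and its change was -0.33 (SE 0.25, adjusted p = 0.822). The adaptor Frs3 lay between 3.92 and 4.22, below the median of every array, with a change of -0.02.

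**Figure D4:**
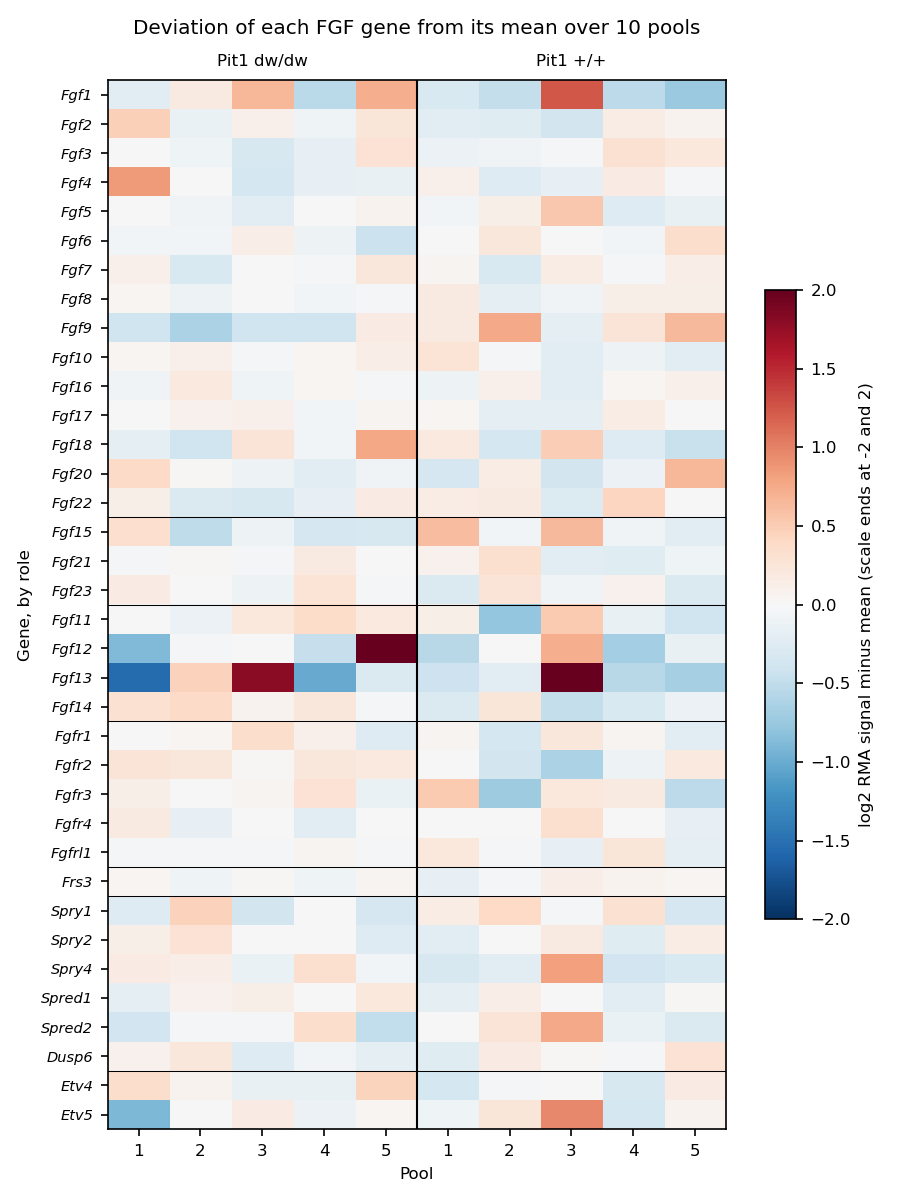
Deviation of each of the 36 FGF genes (y axis, by role) from its own mean over the 10 pools, in log2 units as colour, by pool (x axis), Pit1 dw/dw left and Pit1 +/+ right. The strongest colours are in Fgf13, Fgf12 and Fgf1 and follow single pools in both groups.

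Other genes of the pathway were read from a list of 71, of which 65 were measured. Of the 65, 1 passed, Gpc4, which was lower, beside 0.77% of all genes called and 0.605% called lower. At an unadjusted p under 0.05 there were 11 of the 65, beside 8.46% of all genes. The groups were fully apart in 3 of the 65, beside 2.78% of all genes. These were Gpc4, Flrt1 and Glce, and neither Flrt1 nor Glce passed. The median change of the 65 was 0.06.

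Gpc4, a glypican that carries heparan sulphate on the cell surface, had 9.23, 9.03, 9.09, 9.24 and 8.99 in pools 1 to 5 of Pit1 dw/dw and 9.92, 10.22, 9.37, 9.94 and 10.06 in pools 1 to 5 of Pit1 +/+. All 5 Pit1 dw/dw pools lay below all 5 Pit1 +/+ pools. Means were 9.12 ± 0.11 in Pit1 dw/dw and 9.90 ± 0.32 in Pit1 +/+ (SD, n = 5 each), and Gpc4 fell by 0.79 on the log2 scale (SE 0.15, 95% interval -1.11 to -0.47, adjusted p = 0.0195). The call ended without pool 2, 3 or 5 of Pit1 dw/dw or pool 1, 2 or 4 of Pit1 +/+, with changes between -0.78 and -0.71 and adjusted p between 0.0531 and 0.0651. It also ended without the high-Prph pools (-0.88, adjusted p = 0.0594), and the gene's other probe set gave -0.90 (adjusted p = 0.0920 over all probe sets).

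**Figure D5:**
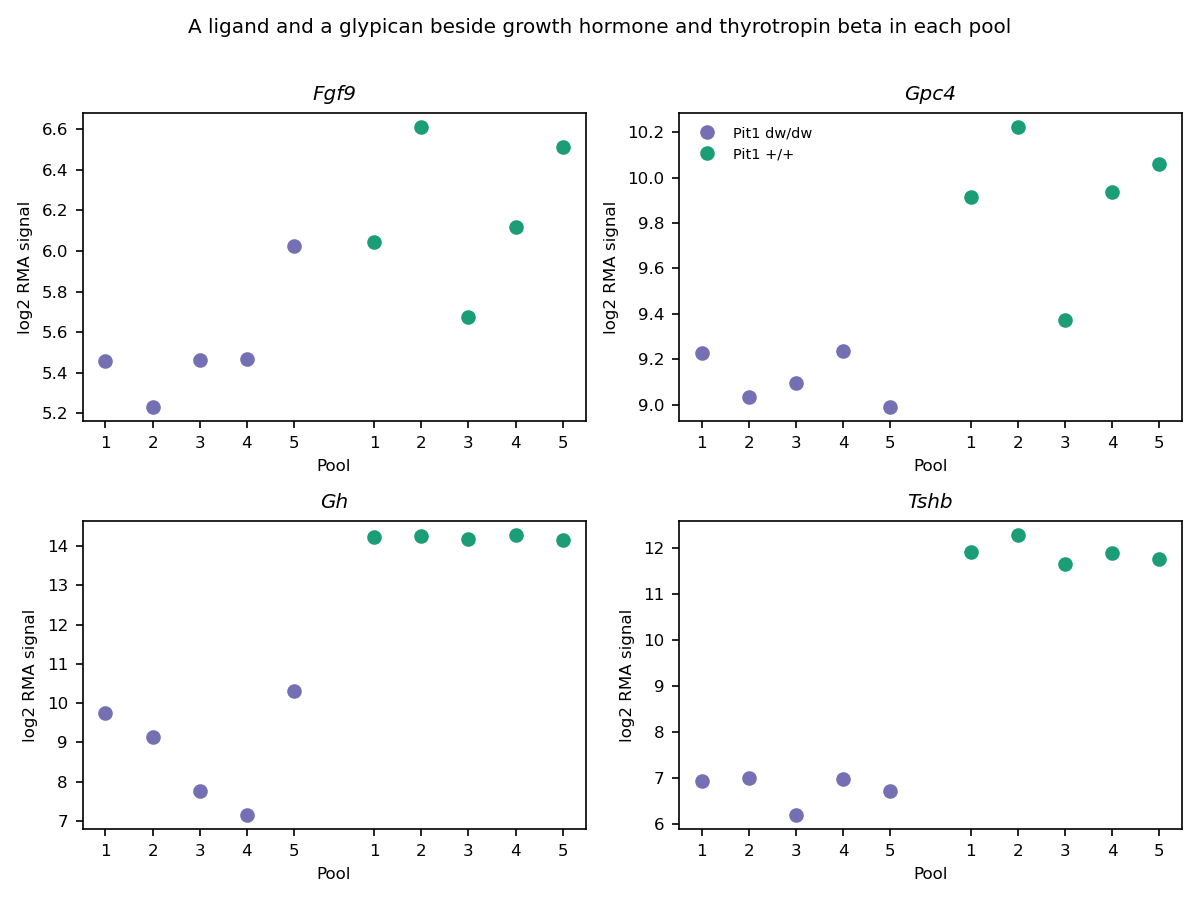
Log2 RMA signal (y axes) of Fgf9, Gpc4, Gh and Tshb in each of the 10 pools (x axes), Pit1 dw/dw left and Pit1 +/+ right. Gpc4, Gh and Tshb are lower in all 5 Pit1 dw/dw pools than in any Pit1 +/+ pool, while the groups overlap in Fgf9.

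Of the co-receptors and binders outside the cell, 16 were measured and 6 had an unadjusted p under 0.05, beside 8.46% of all genes. Besides Gpc4 they were Kl (-0.43) and Klb (0.32), the Klotho co-receptors of endocrine FGFs, Fgfbp1 (1.04), which carries FGFs free of the matrix, Flrt1 (0.37), a membrane protein that binds FGF receptors, and Sdc1 (0.42), a syndecan. They were named after their values were seen, and their adjusted p lay between 0.349 and 0.563. Kl and Klb were below the median of every array. Fgfbp1 had 5.90, 5.00, 5.22, 5.51 and 5.67 in pools 1 to 5 of Pit1 dw/dw and 6.12, 3.95, 4.16, 4.19 and 3.68 in pools 1 to 5 of Pit1 +/+. Pool 1 was far above the other Pit1 +/+ pools, and without it the Fgfbp1 change was 1.47 and passed (adjusted p = 0.0122).

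The 10 heparan sulphate enzymes had changes between -0.03 and 0.28, and 9 of them were above 0. By limma 0 of 10 passed, beside 0.77% of all genes, with 0 at an unadjusted p under 0.05, beside 8.46% of all genes. In the RAS and ERK cascade 0 of 13 passed, with 2 at an unadjusted p under 0.05, beside 8.46% of all genes. The 2 were Ptpn11 (-0.18), a phosphatase that aids RAS activation, and Cbl (0.53), a ubiquitin ligase that sends receptors to degradation. Among 12 genes listed as other inhibitors and ERK phosphatases 0 passed, with 3 at an unadjusted p under 0.05, beside 8.46% of all genes. The 3 were Dusp14 (-0.33), Lgals3 (0.58) and Rasa1 (0.40). Lgals3 was placed in that list but is neither an ERK phosphatase nor an inhibitor of this pathway. With array weights, Cbl (0.86, adjusted p = 0.0418), Rasa1 (0.54, adjusted p = 0.0459) and Kl (-0.49, adjusted p = 0.0335) passed, beside 571 of 18193 genes. The 14 genes listed as early response genes of ERK held 0 calls, beside 0.77% of all genes. At an unadjusted p under 0.05 they held 0, beside 8.46% of all genes, and their changes lay between -0.27 and 0.19. That list also holds Elk1, Elk3, Elk4 and Srf, factors that act upstream of such genes.

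Beside the ganglion list, markers of other tissues near the gland were read. Their counts of calls stand beside 0.77% of all genes called. Of 8 bone and cartilage markers measured none passed, with summed linear signals of 719 to 2433 in Pit1 dw/dw pools and 295 to 2488 in Pit1 +/+ pools. Of 8 mesenchyme and pericyte markers none passed, with sums of 12126 to 16325 in Pit1 dw/dw pools and 8187 to 15301 in Pit1 +/+ pools. Of 8 skeletal muscle markers 1 passed, beside 0.605% of all genes that were lower, namely Actn2, which was lower at 3.80 ± 0.35 in Pit1 dw/dw against 4.81 ± 0.30 in Pit1 +/+ (SD, n = 5 each), and the sums ran between 77.9 and 110.0 in Pit1 dw/dw pools and 86.8 and 107.9 in Pit1 +/+ pools. The neural lobe, oral epithelium and endothelium lists held no call. Krt13 of the oral epithelium list was higher in all 5 Pit1 dw/dw pools than in any Pit1 +/+ pool, beside 2.78% of all genes fully apart. Its means were 5.28 ± 0.58 in Pit1 dw/dw and 4.25 ± 0.25 in Pit1 +/+ (SD, n = 5 each, limma adjusted p = 0.0913). The groups overlapped in the rest of that list. Krt5 changed by -0.14, Trp63 by -0.29, Krt4 by -0.03, Krt15 by 0.01, Krt14 by 0.26 and Perp by 0.18. The median change of the oral epithelium list was 0.01.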

How the data were processed

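Total RNA of pooled newborn mouse pituitaries was hybridised to the arrays. The deposited values are log2 signals that the authors made with RMA, per the submitters' processing notes. No source used here gives its version or settings. The array holds 45101 probe sets. Leaving 64 controls aside, 34945 name 1 gene, 932 several and 9160 none, and 34741 matched gene records by ID. Each of 18193 genes was read from its probe set with the highest mean. The 38 members, the other gene lists and the tests were chosen with earlier results of these data known.

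Groups were taken from titles. With limma 3.58.1 (R 4.3.3), a model of 3 group means was fitted over 15 arrays by lmFit and moderated by eBayes at its default prior, and tests were two-sided. The 5 arrays of the third group entered that model and the choice of probe sets, and their results are left out. Adjustment was by Benjamini-Hochberg over the 18193 genes, at a threshold of 0.05. Changes are log2 differences, Pit1 dw/dw minus Pit1 +/+, with the fit's SE, and means carry the SD of 5 pools. Single probe sets were adjusted over all probe sets. Members were given pool by pool if they passed or were Fgfr1, Fgfr2, Fgfr3, Fgf8, Fgf10, Fgf18, Spry2, Etv4, Etv5 or Dusp6. Fgf1, Fgf9, Fgf12, Fgf13 and Fgf14 were given so after their values were seen. Other pathway genes were named if they passed, and those with only an unadjusted p under 0.05 or with groups fully apart after their values were seen.

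The fit was also run on simulated data with known shifts, in which each gene was drawn independently. Such data lack the variation that many genes share between real pools, so that run is not used as support here. Alternatives changed 1 choice at a time, namely between-array scaling, probe set choice, the filter on dim signals, prior, array weights, groups in the fit, replicate block and each pool left out. Leaving out pools with Prph above 7 (3 of the 10 pools described, 5 of all 15) and covariates from the ganglion and bone lists were added after the data were seen. Pools of a group did not hold identical values, with SDs of gene differences between 0.30 and 0.75. Without a repeated array for reference, these SDs cannot tell whether 1 pool was hybridised more than once. Neither files nor labels give a batch.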

Additional observations from a re-analysis of the deposited data

Results flagged for a closer look

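In 7 cases a group held a pool far from the other 4, by the gap to its nearest neighbour against the whole range of the group. The search covered 74 pairs of gene and group, of which 7 were marked (9.46%), and chance marks about 5%, or 1 in 20. Pool 3 of Pit1 +/+, a pool with high Prph, was the highest of its group in Fgf1 (8.47, next 6.92), Fgf13 (10.49, next 7.82) and Spry4 (6.58, next 5.55). Spry4 was not high in the other high-Prph pools, at 5.91 and 5.63 in pools 2 and 3 of Pit1 dw/dw. In Pit1 dw/dw, pool 1 was high in the dim Fgf4 (3.89, next 3.03) and low in Etv5 (5.62, next 6.41). Pool 3 of Pit1 dw/dw was low in Fgfr2 (9.17, next 9.35), and pool 4 was high in Fgfrl1 (6.54, next 6.47), a group with a very narrow spread.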

How the results depend on the processing

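Limits are the 5 pools a group, the dim signal of 16 of the 36 genes, and markers that varied between pools of a group. Those were markers of neurons and of bone and cartilage, whose source was not tested. Causes of the shifts below were not tested. The count of 0 FGF genes called became 2 with array weights (Fgf9 at -0.61 and Fgf14 at 0.46) and 1 with list covariates (Fgf13), and was 0 to 0 with single pools left out. For the other pathway genes, the 1 called became 4 with array weights (Gpc4, Cbl, Rasa1 and Kl) and 0 without the high-Prph pools, with 0 to 1 over single pools left out. Over all genes, the 140 called became 571 with array weights and 51 without the high-Prph pools, with 83 to 161 over single pools left out. Those counts were 83, 93 and 90 without pool 2, 4 or 5 of Pit1 dw/dw, and 86 without pool 2 or 4 of Pit1 +/+.

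Between pools of the same number, correlations of deviations from the group means ran from -0.20 to 0.64. Of 5 pools, 2 correlated best with their own number. The highest, 0.64, was between the pools 3, both high in Prph, so these values cannot decide whether numbers pair pools across groups. The main fit used no pairing. With the replicate block, 0 FGF genes, 1 other pathway gene and 137 of all genes were called.

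Of 273 alternatives for 12 FGF genes (Fgf9, Fgf14 and the 10 listed by name in the methods), 259 kept the sign and stayed uncalled, 12 turned the sign uncalled and 2 gave a call, both with array weights. Of the 23 alternatives for Gpc4, 15 kept the call, 8 lost it and 0 turned the sign.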
